A study of Homo sapiens with 24 samples.

Results

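MALAT1 and NEAT1 are long non-coding RNAs that lie side by side on chromosome 11, and NONO, SFPQ, PSPC1, RBM14 and MATR3 are genes of RNA-binding proteins that are found in paraspeckles or in the nuclear matrix. These 7 genes were taken by symbol from the 51715 genes of the deposited count tables, and all 7 were found there. The genes were described across A-431 (a line from an epidermoid carcinoma), U-251MG (a glioblastoma line) and U-2 OS (an osteosarcoma line), each with total RNA from whole cells and cytoplasmic RNA. Poly(A)-selected RNA was sequenced in 24 libraries, 4 from each line and fraction, and the cells had no treatment other than culture. Each line is a single established tumour line, and the study's methods describe the 4 libraries of a group as biological replicates from separate cultures of that line.

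Paraspeckles are bodies in the nucleus that form around NEAT1. NEAT1 is made as a short polyadenylated isoform and as a long isoform, and the long isoform is the scaffold on which the proteins assemble. NONO, SFPQ and PSPC1 are related proteins of the DBHS family (Drosophila behaviour, human splicing) that bind RNA and pair with each other. RBM14 is a coactivator and splicing regulator of the same bodies, and MATR3 is an RNA-binding protein of the nuclear matrix. MALAT1 is known as a nuclear RNA that gathers at nuclear speckles, the neighbouring bodies that hold splicing factors. Long NEAT1 and MALAT1 do not end in an ordinary poly(A) tail: RNase P cuts them after a tract of encoded adenosines, which is folded into a triple helix.

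Each of those ends is printed here because poly(A) selection is the step that decides whether these RNAs enter a library. The bases were read from the GRCh37 genome on the plus strand. MALAT1 (ENSG00000251562) lies at chr11:65265111-65275544 and NEAT1 (ENSG00000245532) at chr11:65190245-65213011, with 52099 bases between them, and both are annotated as lncRNA genes. The first line gives MALAT1 at chr11:65273509-65273587, with the A-rich tract of 19 bases in capitals. The second gives the 58 bases that follow it, chr11:65273588-65273645. The third is the end of long NEAT1 at chr11:65212941-65213011, with a tract of 11 bases in capitals that closes the annotated isoform. The fourth is the end of short NEAT1 at chr11:65193905-65193984, with its AATAAA signal in capitals, which starts 11 bases before the annotated end.
MALAT1 end: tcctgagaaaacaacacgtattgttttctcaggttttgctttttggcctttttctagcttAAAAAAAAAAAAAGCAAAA
MALAT1 following bases: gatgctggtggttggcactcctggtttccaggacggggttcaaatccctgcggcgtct
NEAT1 long isoform end: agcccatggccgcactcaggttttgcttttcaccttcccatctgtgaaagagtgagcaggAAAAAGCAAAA
NEAT1 short isoform end: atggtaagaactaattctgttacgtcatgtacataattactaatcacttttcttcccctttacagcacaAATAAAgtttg
MALAT1 and long NEAT1 thus both carry the run AAAAAGCAAAA at the cut end, whereas short NEAT1 carries the signal of an ordinary poly(A) tail.

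The libraries held between 19918911 and 32394170 reads in genes. Library 13, labelled as U-2 OS cytoplasmic RNA, was kept out of the comparisons and is described by itself: the study set aside 1 cytoplasmic U-2 OS sample that carried a nuclear signal, library 13 matched no entry of its read totals, and whether it is that sample is not given by its label. Reads outside exons are here those that the counting gave to no gene feature. Their share was taken over these reads plus reads in genes, without ambiguous reads. It was 21.9% in library 13, against 17.2 to 18.2% in the other 3 U-2 OS cytoplasmic libraries and 17.2 to 17.8% in U-2 OS total RNA. In A-431 all total libraries were matched to flow cell A and all cytoplasmic libraries to flow cell B, so flow cell and fraction cannot be told apart there. The total libraries of U-251MG and U-2 OS were all matched to flow cell A as well. Of their cytoplasmic libraries, 17 and 18 of U-251MG and 15 and 16 of U-2 OS were matched to flow cell B. Flow cell and fraction are thus partly confounded in these lines, and fraction ratios compared between lines differ in this respect. Of 7 markers for each line, 6 for A-431 and 5 for U-251MG had their highest total RNA level in that line. For U-2 OS only ALPL and COL3A1 did, and the bone markers IBSP and BGLAP were under 1 CPM in U-2 OS total RNA (counts per 1000000 reads in genes, scaled between libraries by TMM).

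MALAT1 was detected at lower levels in total than in cytoplasmic RNA in all 3 cell lines. Levels are shares of a library of poly(A) RNA pooled over many cells, so fewer cells with an RNA and less of it in each cell cannot be told apart, and amounts per cell cannot be compared between fractions. In A-431, MALAT1 had 8.63, 8.50, 18.9 and 12.02 CPM in the total libraries, against 30.1, 35.9, 39.3 and 25.9 CPM in the cytoplasmic libraries. In U-251MG it had 24.8, 20.5, 21.5 and 14.9 CPM in total RNA, against 58.6, 45.7, 55.3 and 48.7 CPM in cytoplasmic RNA. In U-2 OS it had 23.01, 30.7, 32.0 and 29.6 CPM in total RNA, against 48.2, 57.0 and 49.9 CPM in cytoplasmic RNA. Every total library lay below every cytoplasmic library of its line, and library 11 was the high one among the A-431 total libraries. By edgeR's quasi-likelihood test, the log2 ratio of total over cytoplasmic RNA in A-431 was -1.42 ± 0.285 (SE, adjusted p = 0.00547). It was -1.36 ± 0.143 for U-251MG (adjusted p = 9.41e-05) and -0.82 ± 0.0974 for U-2 OS (adjusted p = 3.64e-05). The threshold was an adjusted p under 0.001, so MALAT1 was called in U-251MG and U-2 OS and not in A-431. Without library 11 the A-431 ratio was -1.75 with an adjusted p of 4.48e-06, which is past the threshold. By log2 ratio MALAT1 was at rank 127 from the lowest of 16376 genes tested for A-431, at rank 153 of 16128 for U-251MG and at rank 142 of 18049 for U-2 OS.

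NEAT1, the paraspeckle scaffold, had the same direction in each line, with a wider spread between libraries. In A-431 it had 189.3, 180.2, 328.6 and 184.2 CPM in total RNA, against 644.1, 696.0, 782.0 and 715.8 CPM in cytoplasmic RNA. In U-251MG it had 619.0, 430.2, 537.4 and 219.4 CPM in total RNA, against 1346, 1238, 1007 and 996.3 CPM in cytoplasmic RNA. In U-2 OS it had 366.3, 474.0, 547.4 and 475.0 CPM in total RNA, against 663.0, 813.5 and 587.5 CPM in cytoplasmic RNA. The fractions did not overlap in any line. Library 11 was the high one among the A-431 total libraries, and library 8 the lowest among those of U-251MG, which were spread widely. The log2 ratio in A-431 was -1.68 ± 0.218 (SE, adjusted p = 0.000765, edgeR). It was -1.35 ± 0.324 for U-251MG (adjusted p = 0.0128) and -0.54 ± 0.181 for U-2 OS (adjusted p = 0.0843), so that NEAT1 passed the threshold in A-431 only. Leaving out any A-431 library other than library 11 ended that call, with adjusted p-values up to 0.0046, and without library 11 the ratio was -1.93 with an adjusted p of 5.62e-13. Without library 8 the U-251MG ratio was -1.11 and passed the threshold, with an adjusted p of 0.000853. Both RNAs also varied together between libraries of a group: after the group means were subtracted, their log2 CPM over 23 libraries had a Pearson r of 0.77 and a Spearman rho of 0.75, a description over libraries that share preparation and flow cells.

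**Figure D1:**
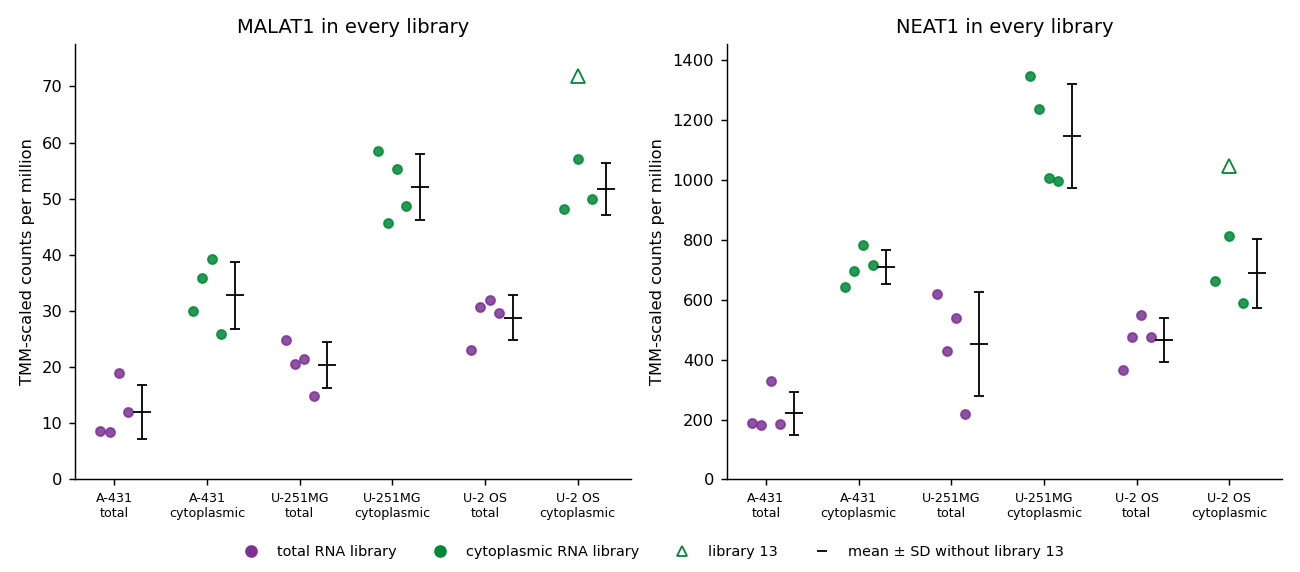
MALAT1 (left) and NEAT1 (right) in each library, in TMM-scaled CPM, by cell line and RNA fraction; circles are libraries, the bar beside them is mean ± SD and the open triangle is library 13. In each line the total libraries lie below the cytoplasmic libraries, for MALAT1 at 8.50 to 32.0 CPM against 25.9 to 58.6 CPM over the 3 lines.

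MALAT1 was counted over a small piece of the gene. The deposited RPKM values of MALAT1 resolved into whole reads on transcript models of 973 and 58 bases, with no value more than 9.9e-10 from a whole number, whereas the next best pair of lengths missed by up to 0.162. The count tables held 92.8 to 99.1% as many MALAT1 counts as the 973-base model had reads, of a gene of 10434 bases. The short model has the length of mascRNA, the small RNA that RNase P cuts from the end of MALAT1 and that RefSeq lists with 58 bases, but the files do not place the model. Reads were 100 bases long, longer than this model, so its reads are not taken here as levels of mascRNA. The NEAT1 values do not separate its isoforms. Its deposited reads and RPKM values gave a mean model length of 1220 to 1319 bases, beside 22743 bases in the main annotated transcript. Where these models lie is not given, so how far the counts cover either isoform is not known.

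Reads of both MALAT1 models were lower in total than in cytoplasmic RNA on average. Per 1000000 uniquely mapped reads, the 58-base model had 0.683 ± 0.202 in total RNA of A-431 against 1.47 ± 0.542 in its cytoplasmic RNA (SD, n = 4 each). In U-251MG it had 1.24 ± 0.365 reads in total RNA and 2.25 ± 0.326 reads in cytoplasmic RNA (SD, n = 4 each). In U-2 OS it had 1.76 ± 0.608 reads in total RNA (SD, n = 4) and 2.54 ± 0.354 reads in cytoplasmic RNA (SD, n = 3). The U-2 OS groups overlapped, with 1 total library among the cytoplasmic ones. The two-sided exact permutation p of the difference in means was 0.0286 for A-431 and for U-251MG, the smallest that 4 against 4 libraries can give, and 0.114 in U-2 OS (Benjamini-Hochberg adjusted 0.049, 0.049 and 0.152 over 12 such tests). For each 100 reads of the long model the short model had 7.18 ± 1.68 reads in A-431 total RNA against 5.26 ± 1.11 in A-431 cytoplasmic RNA, 7.14 ± 1.16 in U-251MG total RNA against 5.11 ± 0.206 in U-251MG cytoplasmic RNA, and 6.78 ± 1.55 in U-2 OS total RNA against 5.66 ± 0.431 in U-2 OS cytoplasmic RNA. The exact permutation p of that share was 0.0286 for U-251MG, 0.171 for A-431 and 0.286 for U-2 OS, and the short model rested on 13 to 111 reads a library.

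**Figure D2:**
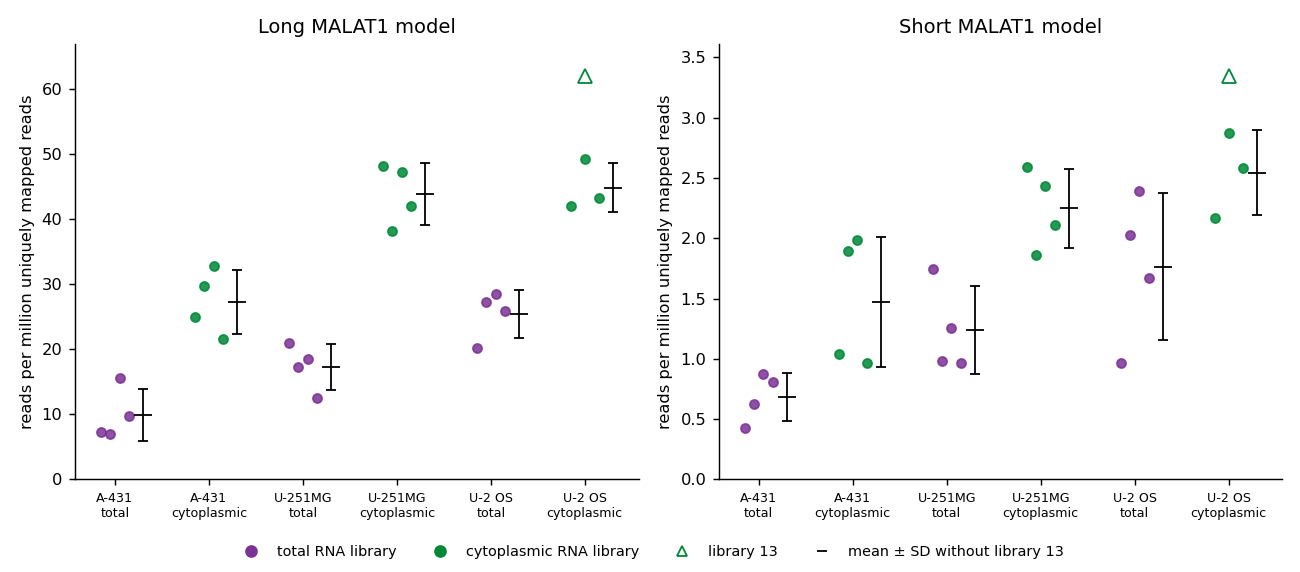
Reads of the 973-base (left) and 58-base (right) MALAT1 models per 1000000 uniquely mapped reads, by library; circles are libraries, bars mean ± SD and the triangle library 13. The long model lies lower in total RNA in every line (mean 9.88 against 27.3 for A-431, 17.3 against 43.9 for U-251MG and 25.4 against 44.8 for U-2 OS), and the short model overlaps between fractions in U-2 OS.

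The share of reads outside exons moved in the same direction as these RNAs in 2 of the lines. It was 14.6 to 15.1% in total RNA and 15.96 to 17.3% in cytoplasmic RNA of A-431, and 14.2 to 15.4% in total RNA and 15.996 to 17.03% in cytoplasmic RNA of U-251MG (exact permutation p = 0.0286 for each). In U-2 OS it was 17.2 to 17.8% in total RNA and 17.2 to 18.2% in cytoplasmic RNA (exact permutation p = 0.80), while MALAT1 was lower in U-2 OS total RNA as well. With all uniquely mapped reads as the library total, the MALAT1 ratios of A-431, U-251MG and U-2 OS were -1.43, -1.36 and -0.81. The part of these reads in the NEAT1 and MALAT1 ratios was not tested.

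The 3 DBHS genes had log2 ratios between 0.01 and 0.14, none past the threshold. They lie at chrX:70474664-70521372 on the plus strand (NONO, ENSG00000147140), chr1:35641979-35659047 on the minus strand (SFPQ, ENSG00000116560) and chr13:20248892-20357159 on the minus strand (PSPC1, ENSG00000121390) of GRCh37. NONO, whose protein pairs with SFPQ and PSPC1, had 511.1 to 535.8 CPM in total RNA of A-431 against 486.7 to 509.9 CPM in its cytoplasmic RNA. The ranges were 401.0 to 418.5 against 378.7 to 415.7 CPM for U-251MG, which overlap, and 574.6 to 595.9 against 565.9 to 572.7 CPM for U-2 OS, which do not. Its log2 ratios were 0.07 ± 0.0488, 0.04 ± 0.0587 and 0.05 ± 0.0493 (SE) in A-431, U-251MG and U-2 OS, with adjusted p-values of 0.221, 0.588 and 0.458 (edgeR). SFPQ, the splicing factor of the family, averaged 431.7 ± 25.2 CPM in total RNA and 429.1 ± 23.2 CPM in cytoplasmic RNA of A-431 (SD, n = 4 each). Its log2 ratios were 0.01 for A-431, 0.02 for U-251MG and 0.10 for U-2 OS, none called, and each changed sign under some alternative. PSPC1, named for its place in paraspeckles, averaged 55.3 ± 3.35 CPM in A-431 total RNA against 51.1 ± 1.002 CPM in A-431 cytoplasmic RNA, 51.1 ± 1.71 against 46.1 ± 4.13 CPM in U-251MG, and 50.8 ± 3.57 against 47.0 ± 0.819 CPM in U-2 OS. Its log2 ratios were 0.12, 0.14 and 0.13 in A-431, U-251MG and U-2 OS, and none passed the threshold (adjusted p = 0.101, 0.141 and 0.103, edgeR).

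RBM14 and MATR3 had ratios of opposite sign. RBM14 (ENSG00000239306) lies at chr11:66384097-66397405 and MATR3 (ENSG00000015479) at chr5:138629363-138667366, both on the plus strand of GRCh37. RBM14, the coactivator, had 76.4, 84.4, 70.0 and 73.7 CPM in A-431 total RNA, against 92.4, 85.2, 86.5 and 84.8 CPM in A-431 cytoplasmic RNA. It had 68.0, 70.7, 67.1 and 59.3 CPM in U-251MG total RNA, against 85.8, 89.7, 88.1 and 91.8 CPM in U-251MG cytoplasmic RNA. In U-2 OS it had 84.5, 83.7, 80.5 and 75.9 CPM in total RNA, against 92.4, 95.4 and 90.8 CPM in cytoplasmic RNA. The total libraries lay below the cytoplasmic ones in each line, by the narrowest gap in A-431. The log2 ratio of RBM14 was -0.43 ± 0.0696 (SE) in U-251MG and passed the threshold (adjusted p = 0.000425, edgeR), and it was -0.19 for A-431 (adjusted p = 0.0164) and -0.18 for U-2 OS (adjusted p = 0.0117). Leaving out library 5, 6, 7, 18 or 20 ended the U-251MG call, with adjusted p-values up to 0.00214. With an offset for GC content the RBM14 ratio was -0.25 for U-251MG (adjusted p = 0.0100, edgeR), no longer called, -0.04 for A-431 and -0.09 for U-2 OS. In the deposited RPKM values it had the other sign in A-431 (0.10) and U-2 OS (0.29) and was -0.04 in U-251MG, none called by limma. RBM14 shares exons with the readthrough gene RBM14-RBM4, which held no count in any library; reads in exons of both genes are given to neither by this counting, so the counts of RBM14 cover only part of it.

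MATR3, the nuclear matrix protein gene, was the member with higher levels in total RNA. It had 554.5, 507.2, 569.8 and 539.9 CPM in A-431 total RNA, against 462.0, 452.2, 446.3 and 428.5 CPM in A-431 cytoplasmic RNA. It had 526.4, 585.0, 558.9 and 657.4 CPM in U-251MG total RNA, against 446.5, 409.7, 472.6 and 455.4 CPM in U-251MG cytoplasmic RNA. In U-2 OS it had 613.1, 618.5, 617.2 and 663.3 CPM in total RNA, against 559.6, 533.3 and 590.5 CPM in cytoplasmic RNA. No total library fell to the level of a cytoplasmic library of its line. The log2 ratio in A-431 was 0.29 ± 0.0533 (SE) and passed the threshold (adjusted p = 0.000351, edgeR). It was 0.37 ± 0.0735 for U-251MG (adjusted p = 0.00132) and 0.18 ± 0.052 for U-2 OS (adjusted p = 0.00688), and was not called there. Leaving out library 9, 12, 22 or 23 ended the A-431 call, with adjusted p-values up to 0.00231. MATR3 has a GC content of 37.6%, at the 10th percentile of annotated genes, and with an offset for GC content its ratios were 0.05, 0.02 and 0.01 in A-431, U-251MG and U-2 OS, none of them called. With the same offset the MALAT1 ratios were -1.56, -1.56 and -0.91 and the NEAT1 ratios -1.77, -1.47 and -0.59. The offset used the GC content of the longest annotated transcript of each gene. For MALAT1 and NEAT1 this need not be the GC content of the bases that were counted.

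**Figure D3:**
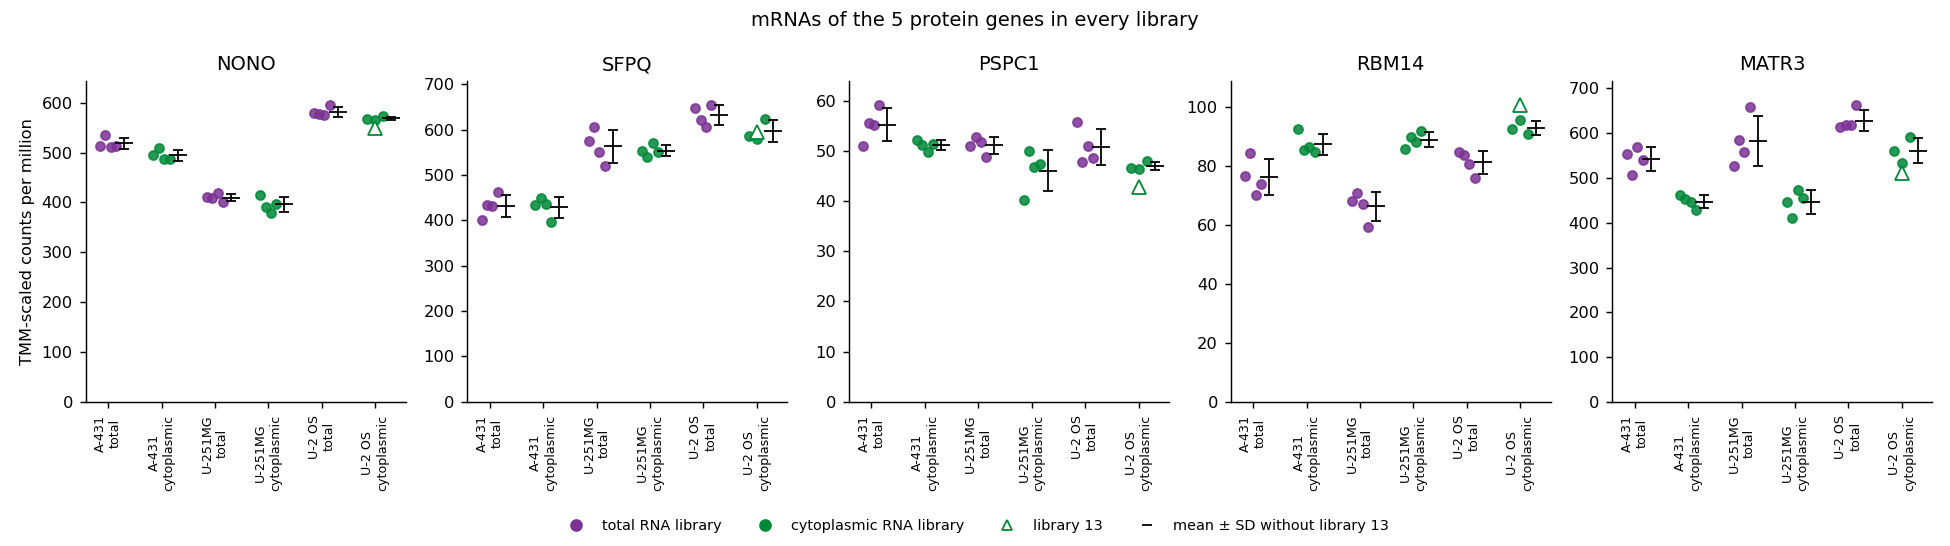
NONO, SFPQ, PSPC1, RBM14 and MATR3 in each library, in TMM-scaled CPM from 0; circles are libraries, bars mean ± SD and the triangle library 13. MATR3 lies higher and RBM14 lower in total RNA in every line, and NONO has means of 409.7 CPM in U-251MG total RNA and 581.5 CPM in U-2 OS total RNA.

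The members called were set against all genes tested. In A-431, 2 of 7 members passed the threshold, against 19.7% of all genes tested. In U-251MG 2 of 7 passed, against 12.9% of all genes, and in U-2 OS 1 of 7 passed, against 8.36% of all genes. Without regard to the test, MALAT1, NEAT1 and RBM14 lay lower in every total library than in every cytoplasmic library of the line in all 3 lines, which held for 22.1% of all genes of A-431, 21.9% of those of U-251MG and 17.3% of those of U-2 OS. MATR3 lay higher in every total library in all 3 lines, and NONO in A-431 and U-2 OS, which held for 23.1, 22.1 and 15.5% of all genes in the same order of lines.

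**Figure D4:**
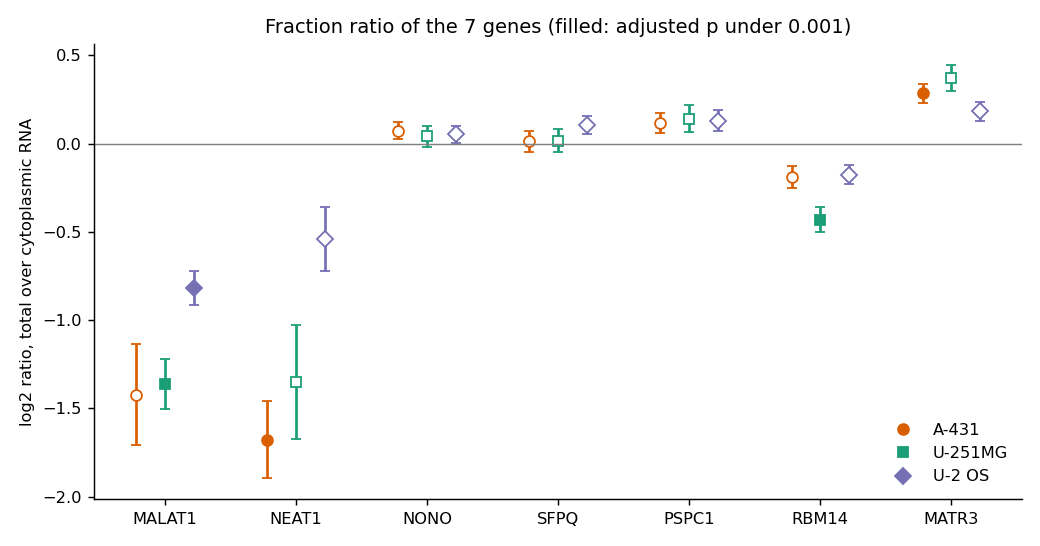
Log2 ratio of total over cytoplasmic RNA of the 7 genes in A-431 (circles), U-251MG (squares) and U-2 OS (diamonds), with SE bars; filled symbols passed an adjusted p of 0.001. MALAT1 and NEAT1 lie between -1.68 and -0.54, and the 5 protein genes between -0.43 and 0.37.

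The ratios of MALAT1 and NEAT1 were nearer to 0 in U-2 OS than in the other lines, and the difference itself was tested as an interaction. None of the 7 members passed an adjusted p of 0.05 in A-431 against U-2 OS, where 2.12% of all genes did, in U-251MG against U-2 OS, where 1.67% did, or in A-431 against U-251MG, where 0.16% did (edgeR). At an unadjusted p under 0.05 there were 1, 3 and 1 members in these comparisons, and the share of all genes under that p is not given here. The NEAT1 difference was -1.15 ± 0.374 (SE) between A-431 and U-2 OS (adjusted p = 0.135, edgeR) and the MALAT1 difference -0.62 ± 0.309 (adjusted p = 0.373). DESeq2 called NEAT1 in A-431 against U-2 OS (-1.12, adjusted p = 0.0459) and no other member in the 3 comparisons. Without library 11, edgeR gave -1.39 for NEAT1 (adjusted p = 0.0417) and -0.93 for MALAT1 (adjusted p = 0.0482) in that comparison, so leaving out that library alone brought both past the threshold.

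Between the cell lines, A-431 had the lowest MALAT1 and NEAT1 levels in total RNA. MALAT1 averaged 12.02 ± 4.88 CPM for A-431, 20.4 ± 4.12 CPM for U-251MG and 28.8 ± 4.01 CPM for U-2 OS (SD, n = 4 each). NEAT1 averaged 220.6 ± 72.1 CPM for A-431, 451.5 ± 173.0 CPM for U-251MG and 465.7 ± 74.6 CPM for U-2 OS. Between U-251MG and U-2 OS the MALAT1 log2 ratio was -0.55 ± 0.212 (SE, adjusted p = 0.0257, edgeR), which misses the threshold. The U-251MG and U-2 OS levels of NEAT1 overlapped, and their log2 ratio was -0.09 ± 0.252 (SE, adjusted p = 0.764, edgeR). In A-431 against U-2 OS, 5 of 7 members passed the threshold, all lower in A-431, where 65.9% of all genes passed and the median gene had a log2 ratio of -0.11. The log2 ratios were -1.32 ± 0.220 for MALAT1 (adjusted p = 2.19e-05), -1.15 ± 0.256 for NEAT1 (adjusted p = 0.000496), -0.62 for SFPQ, -0.28 for MATR3 and -0.23 for NONO. Leaving out library 2, 3, 4, 9, 10 or 12 ended the NEAT1 call, with adjusted p-values up to 0.00282, and leaving out library 4 or 10 ended the MATR3 call.

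In A-431 against U-251MG total RNA, 2 of 7 members passed, where 57.6% of all genes did: NONO was higher in A-431, by a log2 ratio of 0.31 ± 0.0475, and SFPQ lower, by -0.41 ± 0.0582. MALAT1 (-0.77, adjusted p = 0.00486) and NEAT1 (-1.06, adjusted p = 0.00114) missed the threshold, and both passed it without library 11 (-1.10 and -1.32, adjusted p = 2.88e-05 and 0.000155). NEAT1 also passed without library 8 (-1.29, adjusted p = 2.22e-05) and, with all libraries, in DESeq2 (-1.05, adjusted p = 5.56e-05). In U-251MG against U-2 OS total RNA, 2 of 7 passed, where 62.9% of all genes did: NONO was lower in U-251MG by -0.54 ± 0.0476 and RBM14 by -0.33 ± 0.0619. NONO therefore had the order U-2 OS, A-431, U-251MG from high to low, with each step past the threshold, and SFPQ had its lowest level in A-431. With no filter on low counts the NONO ratio of A-431 against U-2 OS was -0.17 (adjusted p = 0.0173, edgeR) and no longer called.

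In cytoplasmic RNA, NONO passed the threshold in each pair of lines, SFPQ and MATR3 in 2 pairs each, and MALAT1 and NEAT1 in none. In A-431 against U-2 OS cytoplasmic RNA, 3 of 7 members passed, where 64.3% of all genes did: NONO (-0.25), SFPQ (-0.52) and MATR3 (-0.37) were lower in A-431. The NONO call there was lost with no filter on low counts (-0.20, adjusted p = 0.00673, edgeR). In A-431 against U-251MG cytoplasmic RNA 2 of 7 passed, where 58.6% of all genes did: NONO was higher (0.31) and SFPQ lower (-0.38) in A-431. In U-251MG against U-2 OS cytoplasmic RNA 2 of 7 passed, where 61.2% of all genes did: NONO (-0.56) and MATR3 (-0.37) were lower in U-251MG. NEAT1 averaged 709.5 ± 57.1 CPM in A-431 and 688.0 ± 115.1 CPM in U-2 OS cytoplasmic RNA (n = 4 and 3), a log2 ratio of 0.00 ± 0.271, and it was highest in U-251MG cytoplasmic RNA, at 1147 ± 173.4 CPM (SD, n = 4). The U-251MG value differed from U-2 OS by 0.70 ± 0.275 (SE, adjusted p = 0.0286, edgeR), which misses the threshold. MALAT1 averaged 32.8 ± 5.98 CPM for A-431, 52.0 ± 5.92 CPM for U-251MG and 51.7 ± 4.64 CPM for U-2 OS, with U-251MG and U-2 OS overlapping.

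Levels can be compared between members only per length. Divided by the length of the main annotated transcript, NONO had 194.8 ± 4.38 CPM per kilobase in A-431 total RNA, SFPQ 115.4 ± 6.73, MATR3 107.1 ± 5.27 and PSPC1 22.7 ± 1.38 (SD, n = 4). The same level of MALAT1 over its 973 counted bases was 12.3 ± 5.02 CPM per kilobase in A-431 total RNA and 33.7 ± 6.15 in A-431 cytoplasmic RNA. The protein genes were divided by whole annotated transcripts and MALAT1 by a counted model, so these lengths are not alike. The order also depends on the length used. In the deposited RPKM, NONO had 1691, 1981, 1718 and 1805 in A-431 total RNA, and SFPQ 1668, 1961, 1799 and 1935. In each of the 6 groups PSPC1 had the lowest level per kilobase of the 3 DBHS genes.

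Library 13 had the highest MALAT1 and NEAT1 levels of all U-2 OS libraries. MALAT1 had 71.8 CPM in library 13, against 48.2 to 57.0 CPM in the other cytoplasmic libraries and 23.01 to 32.0 CPM in total RNA. NEAT1 had 1047 CPM in library 13, against 587.5 to 813.5 CPM in the other cytoplasmic libraries and 366.3 to 547.4 CPM in total RNA. For both RNAs library 13 thus lay beyond the cytoplasmic libraries on the side away from total RNA, at 1.39 times their mean for MALAT1 and 1.52 times for NEAT1. Higher ratios of library 13 over that mean were found for 7.14% of the genes tested in U-2 OS in the case of MALAT1 and for 4.81% in the case of NEAT1. Among the members, 3 lay above all other U-2 OS libraries in it (MALAT1, NEAT1 and RBM14, which had 100.6 CPM), where 21.3% of all genes did, and 3 lay below all of them (NONO, PSPC1 and MATR3), where 27.9% of all genes did. With library 13 in the fit the MALAT1 ratio in U-2 OS was -0.98 ± 0.164 (SE, adjusted p = 0.00379, edgeR), no longer past the threshold, and the NEAT1 ratio was -0.74 (adjusted p = 0.0468).

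**Figure D5:**
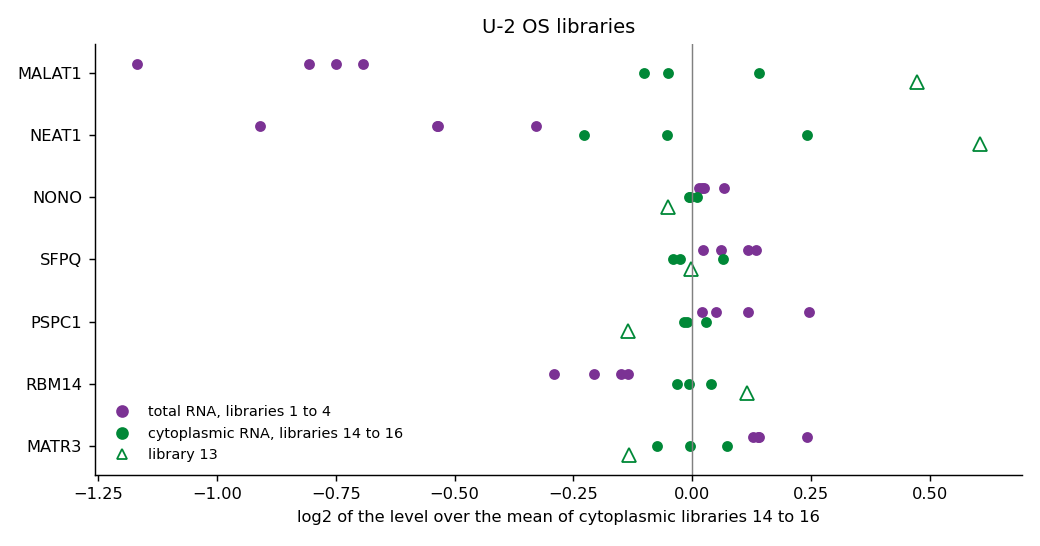
Level of each of the 7 genes in the U-2 OS libraries as log2 of the level over the mean of cytoplasmic libraries 14 to 16; total libraries above, cytoplasmic libraries in the middle and library 13 (triangle) below on each row. Library 13 lies at 0.47 for MALAT1 and 0.61 for NEAT1, to the right of every other library.

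Among 40 further genes of paraspeckle proteins, 1 was higher and 4 were lower in total RNA of A-431 (36 tested), where 10.2% of all genes were higher and 9.51% lower. For U-251MG 2 were higher and 4 lower (37 tested), against 5.93 and 6.98% of all genes, and for U-2 OS 5 were higher and 2 lower (38 tested), against 4.75 and 3.61%. The median log2 ratios of the list were 0.03, -0.01 and 0.06, beside -0.01, 0.00 and 0.00 over all genes. The zinc finger gene ZNF335 was lower in all 3 lines, at 18.8 ± 1.80 CPM in A-431 total RNA against 28.8 ± 1.42 CPM in A-431 cytoplasmic RNA (log2 ratio -0.61), with ratios of -0.70 for U-251MG and -0.58 for U-2 OS. HNRNPK, whose protein favours long NEAT1 by hindering the polyadenylation of the short isoform, had ratios of 0.26, 0.26 and 0.25 in A-431, U-251MG and U-2 OS and passed only in U-2 OS. HNRNPF, HNRNPH1 and HNRNPUL1 passed in no line. The other genes called, named after their values were seen, were CPSF6 (higher) and EWSR1, SS18L1 and PCED1A (lower) in A-431, NUDT21 and ZNF24 (higher) and EWSR1, AKAP8L and SMARCA4 (lower) in U-251MG, and CPSF6, TARDBP, HNRNPA1 and RBM7 (higher) and SMARCA4 (lower) in U-2 OS. CPSF6 and NUDT21 are subunits of the complex that favours the short NEAT1 isoform by its polyadenylation, and CPSF6 had log2 ratios of 0.27 in A-431 and 0.30 in U-2 OS. CPSF7, a further subunit on the list, had ratios of the other sign, -0.19, -0.15 and -0.10 in A-431, U-251MG and U-2 OS, and was not called.

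Of 18 genes of nuclear speckle proteins, 6 passed as higher and 3 as lower in total RNA of A-431, 2 and 3 for U-251MG, and 2 and 2 for U-2 OS. Of all genes 10.2% were higher and 9.51% lower for A-431, 5.93 and 6.98% for U-251MG, and 4.75 and 3.61% for U-2 OS. SRRM2, a scaffold of the speckles in which MALAT1 gathers, was lower in total RNA of all 3 lines: in A-431 it had 397.7 ± 27.4 CPM in the total fraction, against 531.4 ± 22.2 CPM in the cytoplasmic fraction (log2 ratio -0.41), with ratios of -0.70 for U-251MG and -0.55 for U-2 OS. SON, the other scaffold, was higher in A-431 total RNA (0.67 ± 0.0709) and was not called in U-251MG (0.05) or U-2 OS (-0.12). BCLAF1 was higher in A-431 (0.40) and U-251MG (0.46), and SF3B1, a core subunit of the U2 particle, in A-431 (0.24). The list medians were 0.04, 0.03 and 0.08.

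Of 16 genes of factors that process or bind the MALAT1 and NEAT1 ends, RPP21, a subunit of RNase P, was lower in A-431 total RNA (-0.65), and ELAC2, the enzyme that trims the other end of tRNA-like pieces, was lower in U-2 OS total RNA (-0.26), both named after their values were seen. In U-251MG 0 of 15 passed by edgeR, with 8 at an unadjusted p under 0.05, for which no share of all genes is given. The shares of all genes called in either direction were 19.7% for A-431, 12.9% for U-251MG and 8.36% for U-2 OS. DROSHA, EIF4A3, HEXIM1 and TUT1, the 4 with the highest levels, passed in no line, and TUT1 was nearest at -0.22 in A-431 (adjusted p = 0.00226, edgeR).

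The 10 protein-coding genes nearest to NEAT1 and MALAT1, 5 on each side, had ratios of the same sign. All 10 had negative log2 ratios of total over cytoplasmic RNA, from -0.47 to -0.14 for A-431, from -0.90 to -0.12 for U-251MG and from -0.46 to -0.01 for U-2 OS. CDC42EP2 passed the threshold in A-431 (-0.47), FRMD8 in U-251MG (-0.48), EHBP1L1 in A-431 (-0.36) and FAM89B in A-431 (-0.43) and U-251MG (-0.58). FAM89B and the gene ZNRD2 overlap on the same strand. No neighbour reached the MALAT1 ratio of its line.

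Over the 24 libraries and the 9995 genes whose mean log2 CPM reached 3, the genes whose log2 CPM was most like MALAT1 were GOLGA8B (Pearson r = 0.95), DMAP1 (0.94), ATG4B (0.93), MAPK8IP3 (0.93) and MSH5 (0.93), and NEAT1 came 10th (0.92). The genes most like NEAT1 were DDX39B (0.98), APBB3 (0.98), SLC12A9 (0.94), NSUN5P1 (0.93) and EME2 (0.93), and MALAT1 came 6th. DDX39B is an RNA helicase of nuclear speckles and mRNA export that was also on the speckle list, lower in total RNA of A-431 (-0.9995) and U-251MG (-0.86). Apart from MALAT1 and NEAT1 themselves, all of these had negative log2 ratios of total over cytoplasmic RNA in the 3 lines, between -1.36 for NSUN5P1 in U-251MG and -0.25 for DDX39B in U-2 OS. They were picked by likeness over libraries of both fractions, so the shared sign follows in part from how they were picked. The protein members were less like either RNA, with RBM14 highest (0.66 with MALAT1 and 0.60 with NEAT1) and PSPC1 lowest (-0.75 and -0.69). These values describe 24 libraries that share fractions, lines and flow cells.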

How the data were processed

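Poly(A)-selected RNA of total and cytoplasmic fractions was sequenced in 24 libraries. Per the labels and the study's methods, reads were mapped with TopHat 1.1.4 on hg19 and handled with SAMtools 0.1.8. The authors counted uniquely mapped reads per Ensembl gene with HTSeq 0.4.6, without strand, and deposited these raw counts. They also deposited RPKM values summed over transcript models, so that they were used only in alternatives and to recover the reads of MALAT1. The labels name Trizol and paired-end libraries, and the methods RNeasy and single reads.

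Counts were tested with edgeR 4.0.16 (quasi-likelihood, TMM, low counts filtered, Benjamini-Hochberg over all genes tested) in R 4.3.3, within each line for fractions and in 1 model over 6 groups between lines and for interactions, at an adjusted p of 0.001 and 0.05. Alternatives used DESeq2 1.42.0 and limma 3.58.1 on log2(RPKM + 1) and log2(RPKM + 0.1). CPM come from TMM over 24 libraries, with a prior count of 2 on the log2 scale. Flow cells were taken by matching read totals for 23 libraries, with library 13 unmatched. Single library values were compared by exact permutation. Scripts were tested on simulated data. Coordinates and GC content come from the GRCh37 genome and the GENCODE annotation.

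The genes named were the 7 members, up to 4 genes with the highest level of each list, list genes called in all 3 lines, the 5 genes most like MALAT1 or NEAT1, and called neighbours; some genes that this rule takes are not reported here. The members and lists were chosen with earlier results of these data known.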

Additional observations from a re-analysis of the deposited data

Results flagged for a closer look

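Among 4 libraries of a group, a library stood apart where its gap to the nearest other one, over the whole range, was above Dixon's critical value, which chance gives in about 1 in 20 groups, and 48 groups were examined. NEAT1 stood apart in library 11 of A-431 total RNA, at 328.6 CPM, with 180.2 to 189.3 CPM in the other 3. NONO stood apart in library 10 of A-431 total RNA, at 535.8 CPM, with 511.1 to 514.1 CPM in the others, and MATR3 in library 4 of U-2 OS total RNA, at 663.3 CPM, with 613.1 to 618.5 CPM in the others.

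Library 13, which was kept out of the main comparisons, lay above the other U-2 OS cytoplasmic libraries for MALAT1 (71.8 CPM, against 48.2 to 57.0 CPM), NEAT1 (1047 CPM, against 587.5 to 813.5 CPM) and RBM14 (100.6 CPM, against 90.8 to 95.4 CPM). The reads of the 58-base MALAT1 model, worked out from the RPKM values, were present in every library, with 13 in the lowest, where a count of 0 would allow 3.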

How the results depend on the processing

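MALAT1 and NEAT1 kept a negative ratio of total over cytoplasmic RNA in every line under every alternative that was run, while their calls at an adjusted p of 0.001 depended on the setting. The counts of called members were 2 for A-431, 2 for U-251MG and 1 for U-2 OS. With no filter on low counts, 1 member was called in A-431 (NEAT1 at -1.70, not called) and 2 in A-431 against U-2 OS total RNA. With the GC offset, 0 were called in any line (NEAT1 in A-431 -1.77, MALAT1 -1.56 in U-251MG and -0.91 for U-2 OS). DESeq2 added MALAT1 in A-431 (-1.44), called 4 members in U-251MG (NEAT1 at -1.34) and 1 in the fraction ratio of A-431 against U-2 OS. With 1 model over all groups, MALAT1 was called in A-431 (-1.44), 4 members were called in U-251MG (NEAT1 at -1.34) and 0 in U-2 OS (MALAT1 at -0.83). With limma on RPKM plus 1, 0 were called in each line (NEAT1 in A-431 -1.74, MALAT1 -1.10 in U-251MG and -0.69 for U-2 OS), and 1 in A-431 against U-251MG cytoplasmic RNA and in U-251MG against U-2 OS total RNA. With RPKM plus 0.1, 0 were called and these values were -1.75, -1.12 and -0.70. Flow cell A alone left 0 calls in U-251MG (MALAT1 at -1.36), and library 13 in the fit left 0 in U-2 OS (MALAT1 at -0.98). The reads of the short MALAT1 model, an alternative chosen after seeing the data, gave -0.86 in U-251MG.

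Leaving out each library in turn gave 0 to 3 called members in A-431, 1 to 3 in U-251MG, 3 to 5 in A-431 against U-2 OS total RNA, 2 to 4 in A-431 against U-251MG total RNA and 0 to 2 in the fraction ratio of A-431 against U-2 OS. The ratios ranged from -1.75 to -1.28 for MALAT1 and from -1.93 to -1.59 for NEAT1 in A-431, and from -1.55 to -1.11 for NEAT1 in U-251MG. The labels number the libraries 1 to 24, and a replicate block could be made only from the numbers in the study's table of read totals, an alternative chosen after seeing the data. Libraries with the same number deviated from their group means with correlations of 0.02 to 0.21 for A-431, -0.38 to 0.30 for U-251MG and 0.06 to 0.14 for U-2 OS, so that the numbers were not taken as pairs, although in U-2 OS each of 3 pairs correlated best with its own number. With the replicate block 3 members were called for A-431 (MALAT1 at -1.47), 1 for U-251MG and 4 for U-2 OS (NEAT1 at -0.43), none in the 3 fraction ratios between lines, and over all genes 4293, 1582 and 3388 were called in A-431, U-251MG and U-2 OS and 662 in the fraction ratio of U-251MG against U-2 OS.

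Of 385 member values between fractions, 320 kept their direction and their side of the threshold, and 14 changed sign (RBM14 and SFPQ) and none of those was called. Over all genes, 3234 were called in A-431 (1677 higher, 1557 lower), 1553 with the GC offset (1016 higher, 537 lower) and 101 and 93 with RPKM. In U-251MG 2083 were called, 161 with the GC offset, 4157 with DESeq2, 4948 with 1 model, 3765 with no filter, 52 in flow cell A and 0 and 1 with RPKM. In U-2 OS 1509 were called, 588 with the GC offset, 190 with 1 model and 0 and 2 with RPKM. For the fraction ratio, 422 genes were called in A-431 against U-2 OS (237 with library 13, 800 with DESeq2, 273 with RPKM), 333 in U-251MG against U-2 OS (139, 1094 and 173, and 806 with no filter) and 32 in A-431 against U-251MG (71 with DESeq2, 53 with no filter, 49 with RPKM). The cause of these differences was not tested.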
